A study of Homo sapiens with 4 samples.

Results

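STX12, which encodes syntaxin 12 (also called syntaxin 13), and 9 other genes for SNARE proteins of endosomes, lysosomes and autophagosomes were examined in melanoma cells after knockdown of the long noncoding RNA LINC00622. The 10 genes were chosen by name, with STX12 selected on its higher count with siLINC00622 in both cell lines, and all 10 were found among the 17755 listed genes. That difference of STX12 is therefore given as a description, with no test behind it. Poly(A) RNA of SK-MEL-28 and A375, established human cutaneous melanoma lines, was sequenced after transfection with siLINC00622, an siRNA that targets LINC00622, or with the control siNC. Cells stayed 6 h without serum and then 24 h in medium with 10% serum. The 4 libraries are 1 per line and treatment, so no difference between treatments has a replicate check within a line, and the treatment was not tested over both lines because STX12 was chosen on it. The study lists a pair of siRNAs against LINC00622, and which was used for the sequenced cells is not given in the sources used here.

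SNARE proteins are short membrane-anchored or lipid-anchored proteins whose helices zip together between a vesicle and its target and so drive membrane fusion. Early and recycling endosomes use STX12 with STX6, VTI1A and VAMP4, late endosomes use STX7 with STX8, VTI1B and VAMP8, and VAMP7 takes part in fusion with lysosomes. STX17 and YKT6 each act with SNAP29 on autophagosomes that fuse with lysosomes, a step of the autophagy the study follows. In pigment cells, STX12 and VAMP7 take part in cargo delivery to melanosomes, and BLOC-1, which binds STX12 through its subunit BLOC1S6, sorts that cargo.

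Library totals lay between 31269923 and 36384819 counts, and mitochondrial genes took at most 5.72% of them. LINC00622, the targeted gene, had 309 counts after siNC and 135 after siLINC00622 in SK-MEL-28 cells, and 135 and 86 in A375, log2 fold changes of -1.21 and -0.84. RRAGD, the Rag GTPase gene the study follows, went from 3313 to 731 counts and from 515 to 234, or -2.21 and -1.34. Of 7 melanocyte lineage markers, all are listed. In SK-MEL-28 the FPKM (fragments scaled for gene length and library size) of 6 of them was between 74.9 and 1134, with TYRP1 under 1. In A375 SOX10 was at 118 and 149, MITF at 5.29 and 4.95, and the pigment genes PMEL, MLANA, TYR, TYRP1 and DCT at 2.35 or less. Of 13 markers of keratinocytes, fibroblasts, immune and endothelial cells, 3 are listed: KRT10, with an FPKM between 19.0 and 26.3, KRT14, with at most 7.01, and PDGFRB, with at most 2.11. GEO's tissue field names melanoma tissue, whereas its cell line field names the lines.

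Promoter sequences are shown for STX12, the member with the highest log2 fold change, and for STX6, the member with the lowest. They were taken from RefSeq for GRCh38.p14 and run from 250 bases before the annotated start to 50 bases after it, each written 5′ to 3′ on the gene's own strand. The promoter of STX12 is at chr1:27772969-27773268 on the plus strand, and that of STX6 at chr1:181022821-181023120 on the minus strand. Capitals mark TGACGTCA, the palindromic cyclic AMP response element, in STX12, and TCACGTGA, an extended form of the CACGTG box that basic helix-loop-helix factors such as MITF and TFEB bind, in STX6.
STX12: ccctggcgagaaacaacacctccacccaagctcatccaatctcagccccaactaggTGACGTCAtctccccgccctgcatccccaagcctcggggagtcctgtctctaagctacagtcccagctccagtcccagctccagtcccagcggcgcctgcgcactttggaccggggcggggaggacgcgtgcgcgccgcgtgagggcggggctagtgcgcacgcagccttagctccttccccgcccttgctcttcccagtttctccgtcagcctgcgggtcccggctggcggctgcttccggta
STX6: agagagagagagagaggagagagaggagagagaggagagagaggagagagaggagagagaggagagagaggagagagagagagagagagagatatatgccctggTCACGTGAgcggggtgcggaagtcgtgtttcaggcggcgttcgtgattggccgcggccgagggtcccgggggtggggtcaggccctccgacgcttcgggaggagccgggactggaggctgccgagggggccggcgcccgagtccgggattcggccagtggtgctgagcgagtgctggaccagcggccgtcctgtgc
TGACGTCA begins at position -194 relative to the start of STX12, and is held by 1.85% of the 35116 promoters of this length. TCACGTGA begins at position -146 relative to the start of STX6, and is held by 0.980% of them. The table holds 11 promoters of 9 members, as STX7 has 3 and each other member 1, and the shares of all promoters count single promoters in the same way. Of the 11, 1 holds TGACGTCA and 1 holds TCACGTGA. The shorter CACGTG, which lies inside TCACGTGA, was found in 2 of the 11, those of STX6 and SNAP29, against 7.26% of all promoters. GGGCGG, the GC box, was found on either strand in 8 of the 11, with 4 matches in STX12 and 4 in VAMP3, and in 45.0% of all promoters. CCAAT was found on either strand in 5 of the 11, those of STX12, STX6 and VAMP7 and 2 of STX7, and in 34.6% of all promoters. These matches describe letters in the window and not binding, and STX17 was not matched.

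STX12 (ENSG00000117758) is annotated by GENCODE 29 on the plus strand of chromosome 1 of GRCh38 from 27773183 to 27824452. Its count was 940 after siNC and 2283 after siLINC00622 in SK-MEL-28 cells, and 684 and 1884 in A375. In both lines the siLINC00622 library held the higher value. Each log2 fold change, or log2 ratio, sets siLINC00622 against siNC, from counts scaled within the line by TMM and with 2 as the prior count. Beside it stands the 95% Clopper-Pearson interval, which covers counting error only, since the reads carry no molecular identifiers and are not independent molecules. STX12 had a log2 fold change of 1.25 in SK-MEL-28 cells (counting interval 1.14 to 1.36), which is 2.37-fold, and of 1.25 in A375 (counting interval 1.13 to 1.38), which is 2.38-fold. The ratios of the lines differed by 0.0028 on the log2 scale, and their intervals overlap. In these bulk libraries, a change in the number of cells that express a gene and a change in RNA per cell cannot be told apart. On the FPKM scale STX12 went from 7.47 to 17.6 in SK-MEL-28 cells and from 5.75 to 13.6 in A375.

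With 1 library per condition, a gene is called here when it differs by over 1.5-fold and has at least 10 counts in a library of the line. Of the 10 members, 1 was called higher in SK-MEL-28 cells, against 4.56% of the 15442 genes with enough counts, and 1 was called lower, against 6.49%. In A375, 1 was called higher, against 4.52% of 16021 genes, and 0 were called lower, against 4.34%. STX12 is the member called higher in each line, which the choice of the members fixes, and STX6 is the member called lower in SK-MEL-28 cells. Among 11952 genes that reached 50 counts in some library of both lines, 15 had a log2 fold change at or above that of STX12 in SK-MEL-28 cells and 16 in A375. Only PPARGC1A, a coactivator of mitochondrial biogenesis, and TPM4, a tropomyosin, were at or above it in both lines. A difference over 1.5-fold higher in both lines was found for 57 of the 11952 genes.

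**Figure D1:**
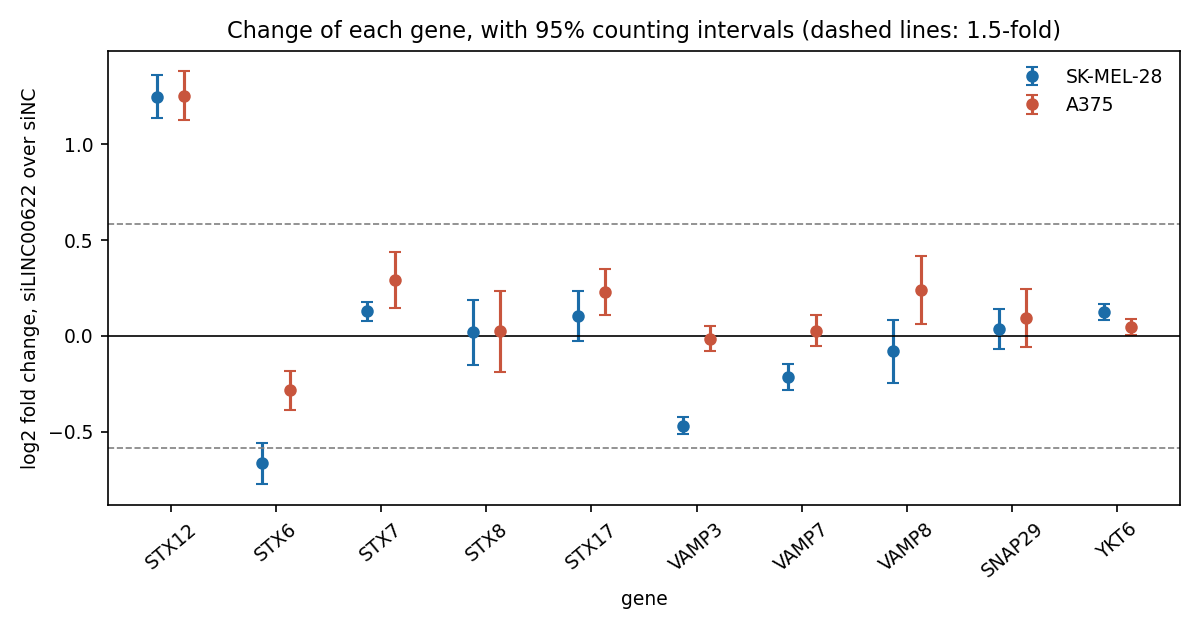
Log2 fold change of siLINC00622 over siNC (vertical axis) for each of the 10 SNARE genes (horizontal axis) in SK-MEL-28 cells (blue) and A375 (red); bars are 95% Clopper-Pearson intervals for counting error and dashed lines mark 1.5-fold. STX12 stands at 1.25 in both lines, STX6 at -0.67 and -0.28, and the other 8 genes lie between -0.47 and 0.29.

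STX6, the syntaxin that pairs with STX12 on early endosomes and also serves the trans-Golgi network, went the other way. GENCODE 29 places it between 180972712 and 181023121 of chromosome 1 (GRCh38, minus strand). Its count was 1817 after siNC and 1170 after siLINC00622 in SK-MEL-28 cells, and 1635 and 1553 in A375. The value with siLINC00622 was the lower one in both lines after scaling, and more so in SK-MEL-28 cells. Its log2 fold change was -0.67 in SK-MEL-28 cells (counting interval -0.77 to -0.56) and -0.28 in A375 (counting interval -0.38 to -0.18), so that the intervals of the lines do not overlap. VTI1A and VAMP4 are no members and are given as the textbook partners of STX12 and STX6. VTI1A had log2 fold changes of 0.010 in SK-MEL-28 cells and 0.048 in A375, and VAMP4 ratios of -0.27 and 0.10. Of this early endosomal set, STX12 was past 1.5-fold in both lines, which its choice fixes. STX6 was past it in SK-MEL-28 cells only, and VTI1A and VAMP4 in neither line.

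VAMP3, also called cellubrevin, is an R-SNARE of recycling endosomes, encoded on the plus strand of chromosome 1 from 7771269 to 7781432. It had 9392 counts after siNC and 6938 after siLINC00622 in SK-MEL-28 cells, and 3615 and 4137 in A375. The siLINC00622 library was the lower one in SK-MEL-28 cells, and the libraries of A375 were nearly level after scaling. The log2 fold change was -0.47 in SK-MEL-28 cells (counting interval -0.51 to -0.42), short of 1.5-fold, and -0.015 in A375 (counting interval -0.080 to 0.050). VAMP7, the R-SNARE of lysosomal fusion, had 3659 and 3226 counts in SK-MEL-28 cells and 2187 and 2578 in A375. Its log2 fold change was -0.21 in SK-MEL-28 cells (counting interval -0.28 to -0.14) and 0.028 in A375 (counting interval -0.055 to 0.11). For VAMP3 and VAMP7, as for STX6, the interval in SK-MEL-28 cells lies below that in A375. VAMP7 lies in a pseudoautosomal region, and the annotation holds an identical copy on the other sex chromosome.

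The SNAREs of late endosomes were all short of 1.5-fold in both lines. STX7, the syntaxin of homotypic late endosome fusion, encoded on the minus strand of chromosome 6 from 132445867 to 132513198, had 6146 counts after siNC and 6864 after siLINC00622 in SK-MEL-28 cells, and 650 and 921 in A375. Its log2 fold change was 0.13 in SK-MEL-28 cells (counting interval 0.078 to 0.18) and 0.29 in A375 (counting interval 0.15 to 0.44). Both are higher with siLINC00622 beyond counting error but short of 1.5-fold. Intervals that exclude 0 were common over all genes, as given further on, and do not set STX7 apart. STX8, its partner, had 566 and 586 counts in SK-MEL-28 cells and 342 and 402 in A375. These are log2 fold changes of 0.019 and 0.024, with intervals from -0.15 to 0.19 and from -0.19 to 0.24, so no change of STX8 was detectable at this depth. VAMP8, the R-SNARE that late endosomes and autophagosome fusion have in common, had an FPKM of 21.0 and 19.7 in SK-MEL-28 cells and of 16.4 and 19.2 in A375. Its log2 fold change was -0.081 in SK-MEL-28 cells (counting interval -0.24 to 0.083) and 0.24 in A375 (counting interval 0.062 to 0.42). VTI1B, the further partner of this complex and no member, had ratios of 0.027 and 0.024 in the same order.

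Among the SNAREs of autophagosomes, STX17 had 932 counts after siNC and 1023 after siLINC00622 in SK-MEL-28 cells, and 968 and 1313 in A375. The log2 fold change was 0.10 in SK-MEL-28 cells (counting interval -0.026 to 0.23) and 0.23 in A375 (counting interval 0.11 to 0.35). SNAP29, which lends helices to both autophagosomal complexes, had 1517 and 1589 counts in SK-MEL-28 cells and 661 and 816 in A375. Its ratios of 0.036 and 0.094 have intervals that include 0. YKT6, a lipid-anchored R-SNARE, had 9693 and 10803 counts in SK-MEL-28 cells and 7903 and 9444 in A375. Its log2 fold changes were 0.13 (interval 0.085 to 0.16) and 0.047 (interval 0.0042 to 0.091). The 3 genes were thus under 1.5-fold in each line, and EPG5, a tether of autophagosomes and lysosomes from the lists described further on, had ratios of 0.088 and 0.13.

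Over the 10 members, the median log2 fold change was 0.027 in SK-MEL-28 cells and 0.071 in A375, beside -0.0040 and 0.0043 over all genes with enough counts. Without STX12, the medians were 0.019 and 0.047. In SK-MEL-28 cells the counting interval lay above 0 for 3 members and below 0 for 3, where 3541 and 3708 of 15442 genes did so. In A375 it lay above 0 for 5 members and below 0 for 1, where 3816 and 3531 of 16021 genes did so. STX12 is among those above 0 in each line through its choice. The direction was the same in both lines for 8 of the 10 members, against 62.2% of 14721 genes with enough counts in both. STX12 is among the 8 through its choice, which fixed its direction, so nothing is concluded from their number beside that share. The direction was opposite for VAMP7 and VAMP8, for which 1 of the intervals includes 0. In 3 of the 10, STX6, VAMP3 and VAMP7, the counting intervals of the lines were apart, against 26.5% of the same 14721 genes. This share is near that of the members, and in each of the 3 the ratio was lower in SK-MEL-28 cells. The difference between the lines' responses was not tested, since each rests on 1 library per condition.

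**Figure D2:**
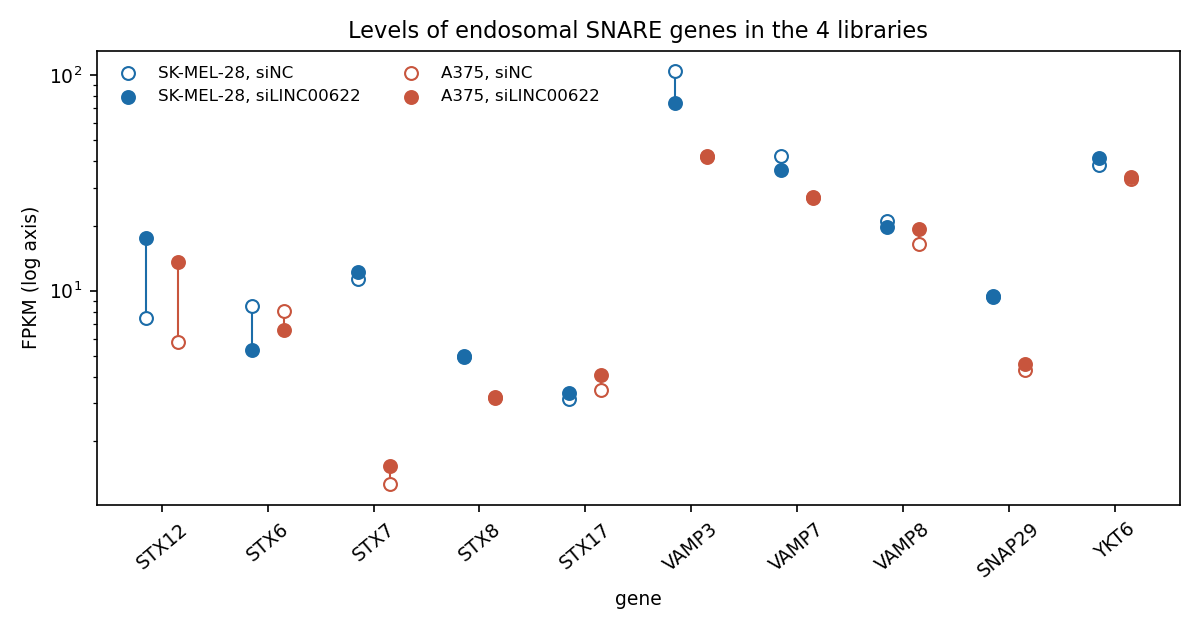
FPKM (vertical log axis) of the 10 SNARE genes (horizontal axis) in each of the 4 libraries, open circles for siNC and filled circles for siLINC00622, blue for SK-MEL-28 and red for A375; an open circle that cannot be seen lies under the filled one. VAMP3 is highest in every library at 41.6 to 104, STX12 moves from 7.47 to 17.6 and from 5.75 to 13.6, and STX7 is at 11.3 and 12.3 in SK-MEL-28 cells but at 1.27 and 1.54 in A375.

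By FPKM, which allows genes to be compared, VAMP3 was the highest member in each library, between 41.6 and 104, and took between 26.8% and 41.5% of the members' summed FPKM. VAMP7 and YKT6 followed at between 26.7 and 42.3, and VAMP8 at between 16.4 and 21.0. The lowest member was STX17 in SK-MEL-28 cells, with an FPKM of 3.16 and 3.36, and STX7 in A375, with 1.27 and 1.54. STX12 ranked 8th of 10 after siNC and 5th after siLINC00622 in SK-MEL-28 cells, and 6th and 5th in A375. Among the target-side syntaxins, the FPKM of STX12 was 0.659 times that of STX7 after siNC and 1.43 times after siLINC00622 in SK-MEL-28 cells, and 4.54 and 8.82 times in A375. The order among neighbours has no replicate spread within a condition. It also depends on the gene length: the authors' length was 7683 bases for YKT6 and 8912 for STX17, against 3707 and 4740 bases of merged exons in GENCODE 29. With the GENCODE lengths, YKT6 and not VAMP3 was highest in 3 of the 4 libraries, and STX8 and not STX17 was lowest in SK-MEL-28 cells. STX12 then ranked 8th and 5th in SK-MEL-28 cells and 7th and 5th in A375. STX7 was lowest in A375 under either length, but both give it 16387 bases, so its own length was not varied. Its FPKM and the ratios of STX12 to it rest on that length. By CPM (counts scaled to library size), which leaves length out, STX7 was at 20.8 and 25.3 in A375. That is above STX8, at 10.9 and 11.0, and VAMP8, at 14.7 and 17.2.

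The levels of the 9 members other than STX12 were also compared between the cell lines. The rule that chose them by name does not use this comparison, though earlier results of these data were known when they were chosen. The comparison was tested with edgeR's quasi-likelihood test over all 4 libraries with treatment as a term, 2 libraries per line. The p-values were adjusted over 16258 genes by Benjamini-Hochberg. Of these 9, 6 were higher in SK-MEL-28 cells at an adjusted p below 0.05, against 33.8% of all genes tested, and 0 were higher in A375, against 35.1%. Of all calls, 49.1% were higher in SK-MEL-28 cells, and 40.6% with library totals as the scaling. STX7 differed most, with 186 and 201 CPM (counts scaled to library size) in SK-MEL-28 cells and 20.8 and 25.3 CPM in A375. That is a log2 difference of 3.24 ± 0.10 (SE, edgeR adjusted p = 1.43e-06). SNAP29 and VAMP3 followed with log2 differences of 1.25 ± 0.10 (edgeR adjusted p = 6.21e-05) and 1.23 ± 0.13 (edgeR adjusted p = 0.000179). The CPM of the lines do not overlap for 8 of the 9, that is all but STX6, against 83.7% of all genes tested, so that this holds for most genes and also for STX17 and VAMP8, which did not pass the test.

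STX8, VAMP7 and YKT6 were higher in SK-MEL-28 cells by smaller steps, with log2 differences of 0.81 ± 0.13 (edgeR adjusted p = 0.00134), 0.70 ± 0.10 (edgeR adjusted p = 0.000929) and 0.42 ± 0.08 (edgeR adjusted p = 0.00337). With 1 library left out at a time, which also leaves no room for the treatment term, YKT6 passed only without the siNC library of SK-MEL-28, with differences from 0.35 to 0.49. VAMP8, at 0.36 ± 0.13, did not pass (edgeR adjusted p = 0.0504), but did without the filter on low counts (edgeR adjusted p = 0.0445). STX6 had a difference of 0.045 ± 0.124 (edgeR adjusted p = 0.764) and STX17 one of -0.037 ± 0.103 (edgeR adjusted p = 0.763). Nothing in the labels says that the libraries of a line came from separate cultures, so these p-values do not measure a spread between cultures. The fit has 1 residual degree of freedom per gene, which comes from how far the lines differ in their response. It also borrows spread over all genes, with a median of 5.43 prior degrees of freedom. Each SE is the size of the log2 difference over the square root of the test's F value. STX12 is given without a test, because the spread comes in part from the responses of the lines. STX12 was chosen for its response in both. Its CPM was 28.4 and 66.8 in SK-MEL-28 cells and 21.9 and 51.8 in A375, a fitted log2 difference of 0.54, and the values of the lines overlap.

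**Figure D3:**
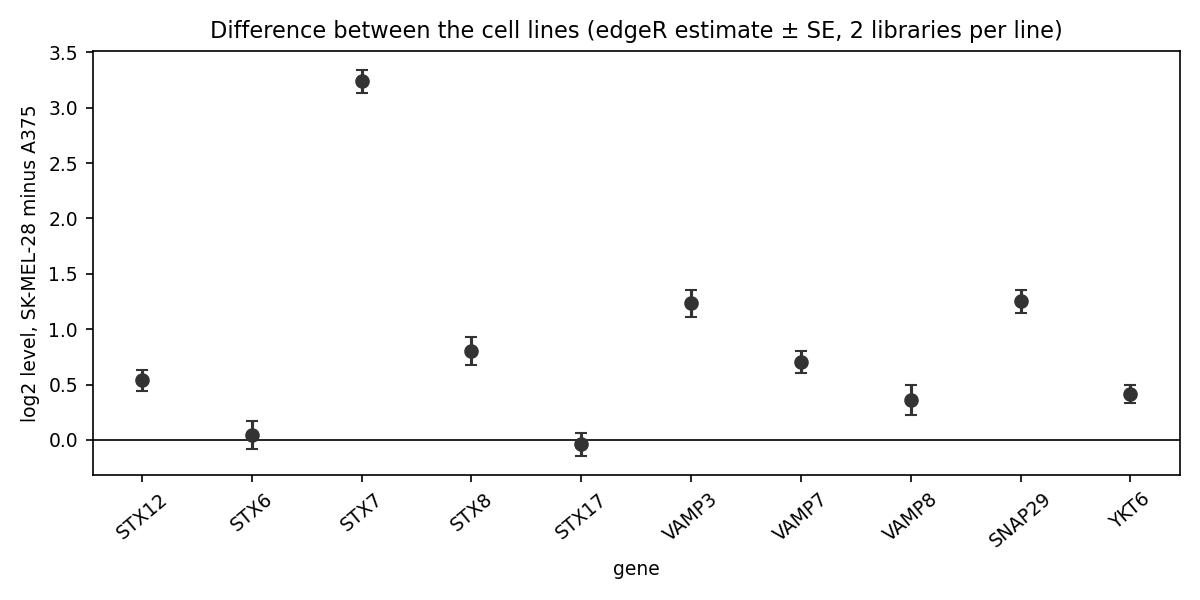
Log2 difference in level, SK-MEL-28 minus A375 (vertical axis), for the 10 SNARE genes (horizontal axis); points are edgeR estimates over 2 libraries per line with treatment as a term, and bars are their SE, which for STX12 is set in part by how it was chosen. STX7 stands at 3.24, SNAP29 and VAMP3 at 1.25 and 1.23, and STX6 and STX17 at 0.045 and -0.037.

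The rest of the fusion machinery was described by lists of genes. Of 24 other listed SNARE genes, 1 was called higher in SK-MEL-28 cells, against 4.56% of all genes, and 0 lower, against 6.49%. In A375, 0 were called higher, against 4.52%, and 0 lower, against 4.34%. The share of calls among these SNAREs is thus near or below that of all genes. STX11, a syntaxin known from cytotoxic granule release, was the one called, with 263 and 457 counts and a log2 fold change of 0.76 in SK-MEL-28 cells (counting interval 0.54 to 0.99). In A375 its 28 and 36 counts gave 0.14 (interval -0.60 to 0.92). The median log2 fold change of the other SNAREs was 0.076 in SK-MEL-28 cells and 0.049 in A375. Next to STX11, the highest mean over the lines was that of VAMP5, with ratios of 0.17 and 0.48. VAMP2, the synaptic vesicle R-SNARE, with -0.28 and -0.21, and STX18, a syntaxin of the endoplasmic reticulum, with -0.0036 and -0.21, had the lowest.

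Among 12 genes for proteins that take SNARE complexes apart or clamp them, 1 was called lower in SK-MEL-28 cells, against the same 6.49% of all genes. This was NSF, the ATPase that disassembles the complexes. Its count was 2133 after siNC and 1309 after siLINC00622 there, a log2 fold change of -0.73 (interval -0.84 to -0.64), and 1903 and 1710 in A375, a ratio of -0.36 (interval -0.46 to -0.27). NAPA, the adaptor that brings NSF to the complexes, had ratios of 0.40 and 0.15. The list's median was 0.11 in SK-MEL-28 cells and 0.060 in A375. Of the 8 subunits of BLOC-1, 5 were above 0 and 3 below in each line, and 1 was called lower in SK-MEL-28 cells, against 6.49%. This was DTNBP1, or dysbindin, which went from 1240 to 740 counts, a log2 fold change of -0.77 (interval -0.91 to -0.64). In A375 it had 365 and 304 counts, a ratio of -0.47 (interval -0.70 to -0.25). BLOC1S6, the subunit that binds STX12, was higher in both lines but under 1.5-fold, with ratios of 0.44 (interval 0.36 to 0.52) and 0.51 (interval 0.42 to 0.59). The median of BLOC-1 was 0.17 in SK-MEL-28 cells and 0.078 in A375.

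Among tethers and Rab GTPases, 0 of 12 and 0 of 14 were called in either line, where all genes had 4.56% higher and 6.49% lower in SK-MEL-28 cells and 4.52% and 4.34% in A375, so that few or none would be called at those shares. Of 12 tethers and their effectors, 10 had a log2 fold change above 0 in each line, with medians of 0.13 in SK-MEL-28 cells and 0.12 in A375. Over all genes with enough counts, 7642 of 15442 were above 0 in SK-MEL-28 cells and 8117 of 16021 in A375. The tethers ranged from -0.56 to 0.39 in SK-MEL-28 cells and from -0.21 to 0.43 in A375, so that the value farthest from 0 in SK-MEL-28 cells was a lower one. It belongs to EEA1, the tether of early endosomes, with 2317 and 1606 counts there, and with 3032 and 3328 counts and a ratio of -0.075 in A375. The other tether below 0 in both lines was RBSN, rabenosyn, with ratios of -0.23 and -0.21. Of 14 endosomal Rab genes, 9 were above 0 in SK-MEL-28 cells and 12 in A375, with medians of 0.13 and 0.17. These medians stand beside -0.0040 and 0.0043 over all genes, and were not tested.

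**Figure D4:**
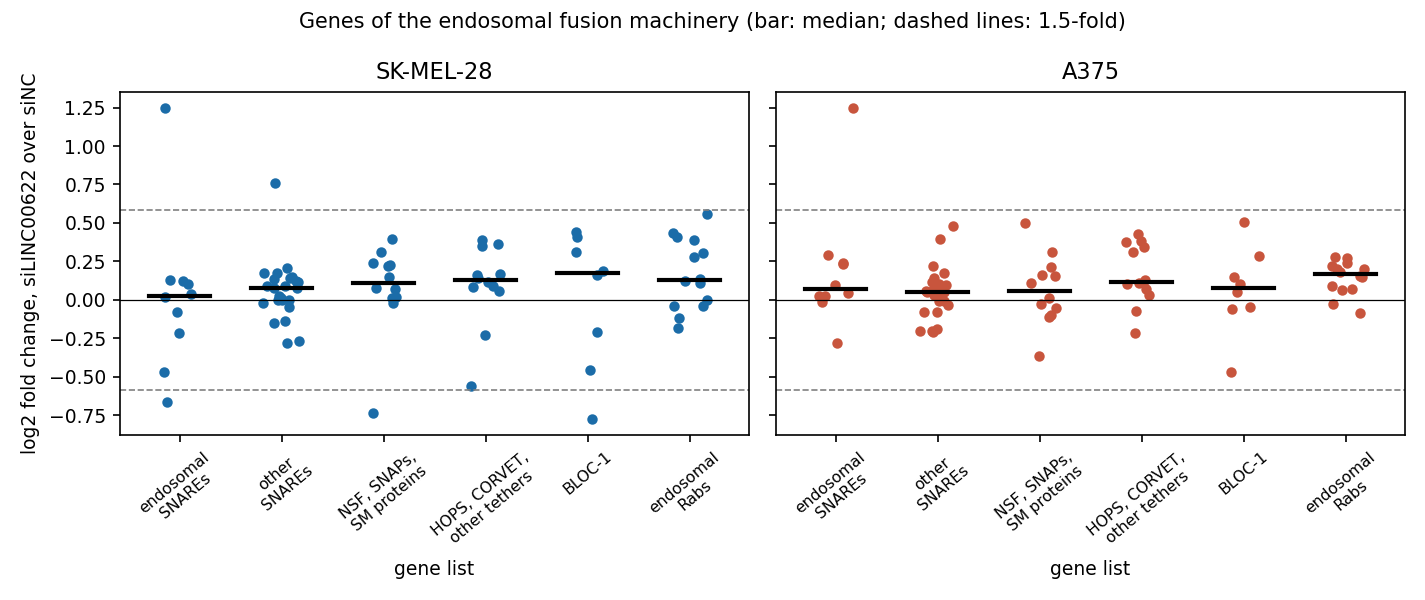
Log2 fold change of siLINC00622 over siNC (vertical axis) of each gene in 6 lists of the endosomal fusion machinery (horizontal axis), in SK-MEL-28 cells (left) and A375 (right); black bars are medians and dashed lines mark 1.5-fold. Past the dashed lines are STX12, STX6, STX11, NSF and DTNBP1 in SK-MEL-28 cells and STX12 alone in A375.

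The 5 genes whose pair of log2 fold changes lay nearest to that of STX12, by Euclidean distance over the 2 lines, were ZNF616, WNT9A, RGS16, ITGA9 and ENSG00000276728. ZNF616, a zinc finger gene, was nearest at a distance of 0.205, with ratios of 1.30 in SK-MEL-28 cells and 1.05 in A375. WNT9A, a WNT ligand, had 1.01 and 0.98, and RGS16, a regulator of G protein signalling, had 0.89 and 1.32. ITGA9, an integrin chain, had 1.09 and 0.86, and ENSG00000276728 had 0.88 and 1.03. The likeness rests on 2 values per gene, and these genes were found by their values alone.

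**Figure D5:**
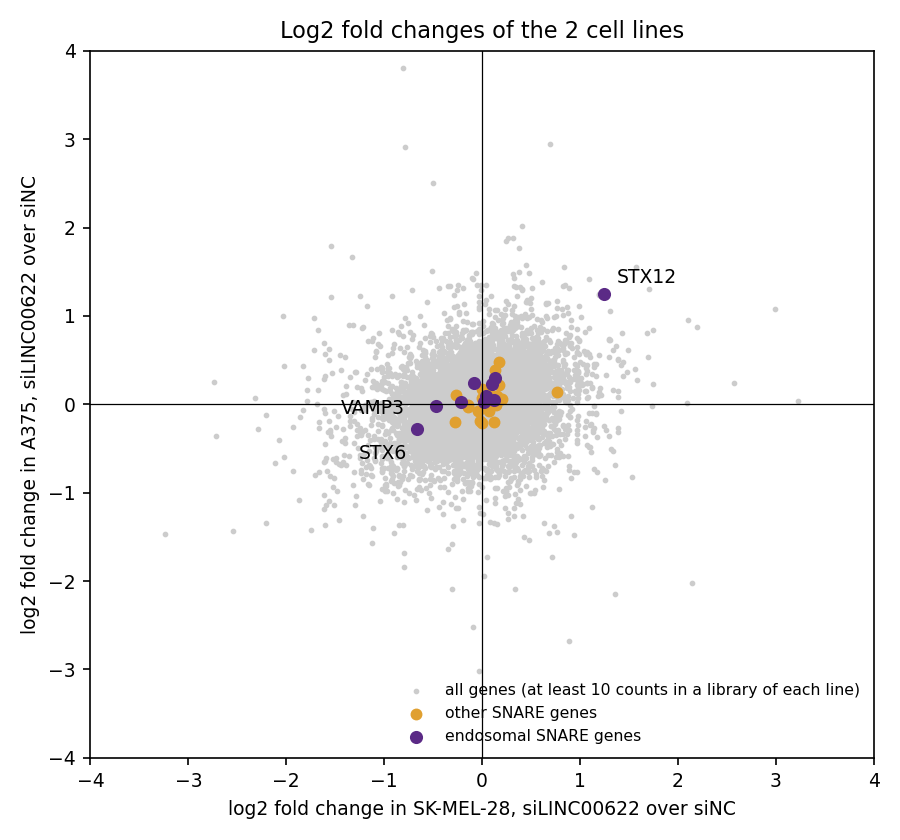
Log2 fold change of siLINC00622 over siNC in SK-MEL-28 cells (horizontal axis) and A375 (vertical axis) for all genes that reached 10 counts in both lines (grey), other SNARE genes (orange) and the 10 endosomal SNARE genes (purple). STX12 stands at 1.25 and 1.25, and the other purple points lie between -0.67 and 0.13 on the horizontal and between -0.28 and 0.29 on the vertical axis.

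Of the genes beside STX12 on chromosome 1, FAM76A and PPP1R8 had counts high enough to read and were closer to 0. FAM76A, which ends 10061 bases before it, had 443 and 416 counts in SK-MEL-28 cells and 198 and 277 in A375, log2 fold changes of -0.12 and 0.27. PPP1R8, which begins 6326 bases after it, had 1970 and 1959 counts in SK-MEL-28 cells and 2249 and 2550 in A375, ratios of -0.039 and -0.028. The further listed neighbours, AL020997.1 and SCARNA1, had 18 counts or fewer in each library. Inside STX12, the listed AL020997.3 had at most 6 counts. PI4KA overlaps SNAP29 on the opposite strand, and the strand setting of the counting is not given in the sources used here, so their shared reads cannot be told apart. PI4KA had log2 fold changes of -0.071 and -0.042.

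Matches to the seeds of the siRNAs were sought in the longest annotated 3′ UTR of each member, because a guide strand can also pair with other transcripts through its bases 2 to 8. The target sequences that the study lists are shown 5′ to 3′, with the bases that pair with the seed in capitals.
siLINC00622_1: ccctaaagaaaGTGAGAAa
siLINC00622_2: ggcaacctctaATTGACTt
GTGAGAA was found in the 3′ UTR of 0 of the 10 members, against 14.6% of 12370 genes. ATTGACT was found in 2 of the 10, STX7 and VAMP7, against 11.6%. These shares are not matched for length: 8 of the 10 members have a 3′ UTR longer than the median of 1379 bases, and that of STX7 has 14891. The match in STX7, on the minus strand at chr6:132446900-132446906 of GRCh38, and that in VAMP7, on the plus strand at chrX:155942564-155942570, are shown with 8 bases on either side and the match in capitals.
STX7: tggatggaATTGACTccatccta
VAMP7: ctcctaatATTGACTttcaggaa
STX12 and STX6 hold neither match in the 3′ UTR nor in the coding sequence. In coding sequence, YKT6 held 1 match to GTGAGAA, and 0 members held ATTGACT. STX7 had log2 fold changes of 0.13 in SK-MEL-28 cells and 0.29 in A375, and VAMP7 ratios of -0.21 and 0.028. A part of these matches in any ratio was not tested.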

How the data were processed

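Poly(A) RNA of each line and siRNA was sequenced once, and libraries were grouped by their labels. The authors deposited 1 table of 17755 genes with raw counts, CPM, FPKM and TPM per library. The deposited counts are raw. The deposited CPM are relative to the whole library, whose total is count over CPM. The deposited FPKM and TPM also take gene length into account. The submitters' processing notes name hg19, HISAT2, HISAT, TopHat2 and Bowtie2 without a role. The counter, its strand setting and the annotation are not given in the sources used here. Coordinates are those of GRCh38 and are annotation only, since the table holds none.

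Counts were scaled within each line by TMM in edgeR 4.0.16 under R 4.3.3, with a prior count of 2. A call within a line is a difference over 1.5-fold, the study's fold change, with at least 10 counts in a library, and intervals are 95% Clopper-Pearson. No result rests on a test of the treatment, because STX12 was chosen on it and each condition has 1 library. A stricter call also asked for p below 0.05 by edgeR's exact test at an assumed dispersion of 0.1, whose outcome that assumption sets. The lines were compared with edgeR's quasi-likelihood test after filterByExpr, fitted on all genes and read for the members other than STX12. The members and lists were chosen with earlier results of these data known. Genes named beside the members are LINC00622, RRAGD, the 2 listed genes on each side of STX12, the 5 nearest to it by fold change, listed genes over 1.5-fold, and the 2 highest and 2 lowest other SNAREs. PPARGC1A, TPM4, the overlapping PI4KA and AL020997.3, and the partners VTI1A, VTI1B, VAMP4, BLOC1S6, NAPA, EPG5, EEA1 and RBSN were added after their values were seen, as were GENCODE lengths as an alternative. The scripts were tested on simulated data. Alternatives covered the scaling, prior count, FPKM, TPM, filters, fold, DESeq2 1.42.0, the treatment term and each library left out. Python 3.11.15 was used for the rest.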

Additional observations from a re-analysis of the deposited data

How the results depend on the processing

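Within the lines, the direction of each member's log2 fold change was the same under library totals, DESeq2 size factors, centring on the median, prior counts of 0.5 and 5 and FPKM with a pseudocount of 1. With FPKM the ratio of STX12 was 1.13 in SK-MEL-28 cells and 1.11 in A375, below the counting interval, as a pseudocount shrinks the ratio of genes at this level. At over 2-fold 0 members were called lower in SK-MEL-28, where STX6 is at -0.67. With p below 0.05 added, by edgeR's exact test at an assumed dispersion of 0.1, 0 members were called in either line, and STX12 had an unadjusted p of 0.0607 in SK-MEL-28 cells and 0.0606 in A375. With 1 library per arm the assumed dispersion sets this outcome, and STX12 was chosen on the same values, so it says nothing for or against the calls. Between the lines, the call of STX12 is not used, since its choice bears on the spread of the fit. With STX12 counted, 7 members were higher in SK-MEL-28 in the fit with TMM, with library totals and with DESeq2. There were 8 without a filter, which adds VAMP8, and 6 without the treatment term, which loses STX12. Library totals moved the median over all genes from -0.035 to -0.20 and turned the difference of STX6, which was not called, below 0. Leaving out 1 library at a time, also without the treatment term, gave between 5 and 7 members. The difference of STX12 then lay between -0.22 and 1.31, turning below 0 without the siLINC00622 library of SK-MEL-28, and YKT6 stayed called only without the siNC library of that line. Leaving out the treatment term puts the treatment difference of STX12 into the spread, and the cause for YKT6 was not tested. Leaving out a library within a line was not possible with 1 per condition. Depth limits STX8 and VAMP8 most, with at most 626 counts in a library.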
